A study of Mus musculus with 10 samples.

Results

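Read counts were examined for 8 genes of thyroid hormone activation, transport and response in mouse brown fat, a tissue that burns fuel for warmth, taken from the interscapular depot. The genes were taken by symbol from a count table of 20295 genes. They are the deiodinases Dio1, Dio2 and Dio3, the nuclear receptors Thra and Thrb, the transporter Slc16a10, the cytosolic binding protein Crym and the thyrotropin receptor Tshr. The tissue came from 10 single-housed male C57BL/6JBomTac mice, 8 weeks old. Of these, 5 stayed at 22 °C (control) and 5 spent 3 days at 4 °C (cold), and each mouse gave 1 library of poly-A RNA. The count columns of both groups are headed WT, the labels name no transgene, allele or drug, and all mice had chow and water freely.

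The thyroid secretes mainly thyroxine, a precursor that the deiodinases of target tissues convert. The enzyme made from Dio2 removes an outer-ring iodine and so makes the active hormone triiodothyronine, Dio3 encodes the inactivating enzyme, and the Dio1 enzyme can do either and is known mainly from liver, kidney and thyroid. In brown fat, noradrenaline raises cAMP, and Dio2 is a classical target of that signal. Triiodothyronine then acts through the receptors encoded by Thra and Thrb, which bind DNA with retinoid X receptors and exchange corepressors for coactivators.

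The 300 bases around the start of Dio2 are shown because they hold the full cAMP response element, TGACGTCA, which is the same on both strands. The sequence is RefSeq's, build GRCm38.p6, chr12:90738989-90739288, minus strand, from 250 bases before to 50 after the gene start, with the element in capitals.
Dio2: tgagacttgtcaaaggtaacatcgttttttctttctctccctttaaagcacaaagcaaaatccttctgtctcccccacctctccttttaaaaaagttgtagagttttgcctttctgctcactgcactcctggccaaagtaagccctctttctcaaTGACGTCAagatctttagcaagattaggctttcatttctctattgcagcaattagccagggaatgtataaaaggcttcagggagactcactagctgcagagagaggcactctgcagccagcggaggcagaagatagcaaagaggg

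The element lay 95 to 88 bases before the Dio2 start. It was present in 588 of 32851 such windows in the RefSeq table (1.79%). Windows were found for 5 of the 8 genes (Dio1, Dio2, Dio3, Slc16a10 and Thrb), and among these only the Dio2 window held the full element. The shorter element TGACG, searched on either strand and contained in the full one, was in the windows of Dio2 and Thrb. The DR4 motif of thyroid hormone receptors, a direct repeat of AGGTCA spaced by 4 bases and searched on either strand, was in 5 of the 32851 windows and in none of the 5 genes' windows. These matches describe the letters of the windows and not binding.

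Library totals lay between 4446163 and 5776905 counts in the control group and between 5676963 and 6923932 in the cold group. Values are normalised read counts (CPM), scaled to the TMM-adjusted total of each library, with the mean ± SD over 5 libraries. Log2 fold changes are of cold over control, with a standard error (SE) and a 95% interval, from edgeR's quasi-likelihood test across 11229 genes, and a gene was called at an adjusted p under 0.05. At this threshold 19.3% of the genes tested were called, 10.2% higher and 9.14% lower. All 10 brown adipocyte markers were detected, and 2 rose (Ucp1 by 1.02 and Cox7a1 by 0.34 on the log2 scale), 1 fell (Adipoq, by 0.72) and 7 were not called. Of 9 thyroid follicular markers, 7 were at 0 in every library. On the second principal component of log2 CPM, which held 19.2% of the variance, control replicate 2 (36.5) and cold replicate 5 (23.5) stood apart from the other 8 libraries (-23.7 to 0.9). Results were also computed without them.

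Dio2 was the only deiodinase with more than 1 read in the whole data set. Dio1 (chr4:106964070-106979748, mm9) had 0 counts in all 10 libraries. Over the group totals, 0 counts allow up to 0.122 CPM in controls and up to 0.097 CPM after cold, taking 3 counts as the limit. Dio3 (chr12:111517440-111519307), which is known from placenta and fetal tissue, had 1 count, in control replicate 1. Crym (chr7:127329898-127345502), a crystallin relative that binds triiodothyronine in the cytosol, had 1 count, in cold replicate 2. These 3 genes did not pass the filter on low counts, so no comparison was made for them. The limits cover counting error only.

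Among the 5 tested genes, levels per length followed the order Dio2, Thra, Thrb, Slc16a10 and Tshr. Per kilobase of counted sequence, Dio2 was at 28.5 to 258 CPM over the 10 libraries, Thra at 22.1 to 37.3, Thrb at 5.92 to 11.01, Slc16a10 at 5.56 to 10.4 and Tshr at 1.17 to 3.51. Dio2 lay above Thra in 10 of 10 libraries, by 1.16 to 6.92 times. Thra lay above Thrb in 10 of 10, and Slc16a10 above Tshr in 10 of 10. Thrb and Slc16a10 were not separated, with Thrb higher in 7 of 10 libraries and a ratio of 0.905 to 1.56. The order of Thra and Thrb depends on the counted lengths of their gene models, 2246 and 5997 bases. In CPM not divided by length, Thrb was above Thra in control replicates 1 (66.1 against 51.1) and 5 (51.4 against 49.5). In the cold group the mean level of Dio2 per kilobase exceeded that of 91.3% of the genes tested, that of Thra 77.3%, that of Thrb 47.2%, that of Slc16a10 42.1% and that of Tshr 20.6%.

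**Figure D1:**
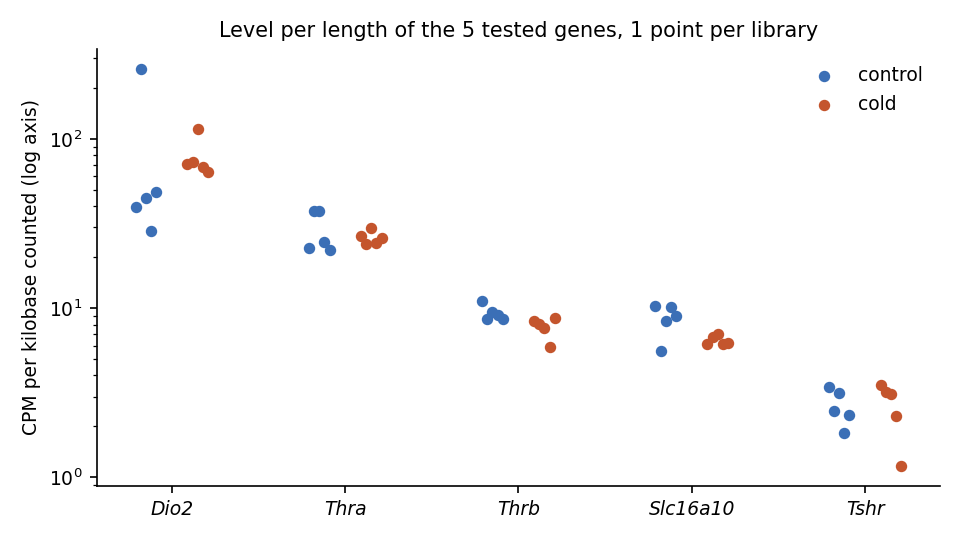
Level of the 5 tested genes in CPM per kilobase of counted sequence, on a log axis, with 1 point per library (blue, control; orange, cold). Dio2 spans 28.5 to 258, and the points of Thrb and Slc16a10 share 1 range.

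Dio2 (chr12:91962992-91976878, 5815 bases counted) did not pass the test over all 10 libraries, and its value turned on 1 control library. The control libraries held 231.2, 1500, 259.6, 165.9 and 283.6 CPM in the order of replicates 1 to 5. The cold libraries held 411.5, 424.9, 660.4, 395.4 and 369.0 CPM. Control replicate 2 was thus the highest library of all, 6.38 times the mean of the other 4 controls and 3.32 times the cold mean. The other 4 controls lay below all 5 cold libraries.

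With every library included, Dio2 averaged 488 ± 567 CPM in controls and 452 ± 118 CPM after cold, a log2 fold change of -0.11 (SE 0.51, 95% interval -1.21 to 0.99, adjusted p = 0.899). Without control replicate 2 it was 0.94 higher in the cold (adjusted p = 0.00285), where the remaining controls were at 235 ± 50.8 CPM and the cold mean was 1.92 times theirs. In that fit of 11381 genes, 21.4% were called, and 11.3% were called higher. In the fits that each left out another library, Dio2 lay between -0.33 and -0.05. DESeq2 gave no p for Dio2 under its outlier filter, and control replicate 2 had the largest Cook's distance, the measure that filter uses. An exact permutation test of the mean log2 CPM, two-sided, gave 0.40 with p = 0.54 over 10 libraries. The exact permutation test without control replicate 2 gave 0.94 with p = 0.00794, the smallest p that design allows. Once that library was left out, all remaining controls lay below all cold libraries, so no other assignment could give a larger rise. This p therefore largely restates that separation and is no further support for a rise of Dio2.

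In bulk tissue, more RNA per cell and more cells of a type cannot be told apart. Among markers of other cell types, 2 of 6 endothelial genes rose in the cold (Emcn by 0.98 and Kdr by 0.35), as did 1 of 6 macrophage genes (Cd68, by 2.12) and 1 of 6 fibroblast genes (Pi16, by 0.78). Of all genes tested, 10.2% rose. The other markers of these 3 cell types were not called, and Tek (-0.15), Tie1 (-0.11), Csf1r (-0.29), Cd14 (-0.28), Mrc1 (-0.03) and Dcn (-0.01) were below 0. The endothelial markers summed to 595 to 770 CPM in controls and 746 to 893 after cold, the macrophage markers to 89.6 to 199 and 66.4 to 342, and the fibroblast markers to 346 to 495 and 235 to 730. None of these 18 genes was at 0 in every library. Kdr (0.28, adjusted p = 0.0501) and Pi16 (0.71, adjusted p = 0.0612) were not called without control replicate 2. Pecam1 (0.615, adjusted p = 0.000723) and Cdh5 (0.31, adjusted p = 0.0308) were called higher in that fit only. There 3 of 6 endothelial, 1 of 6 macrophage and 0 of 6 fibroblast genes were higher, against 11.3% of all genes tested. The part of these cell types in the results was not tested.

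**Figure D2:**
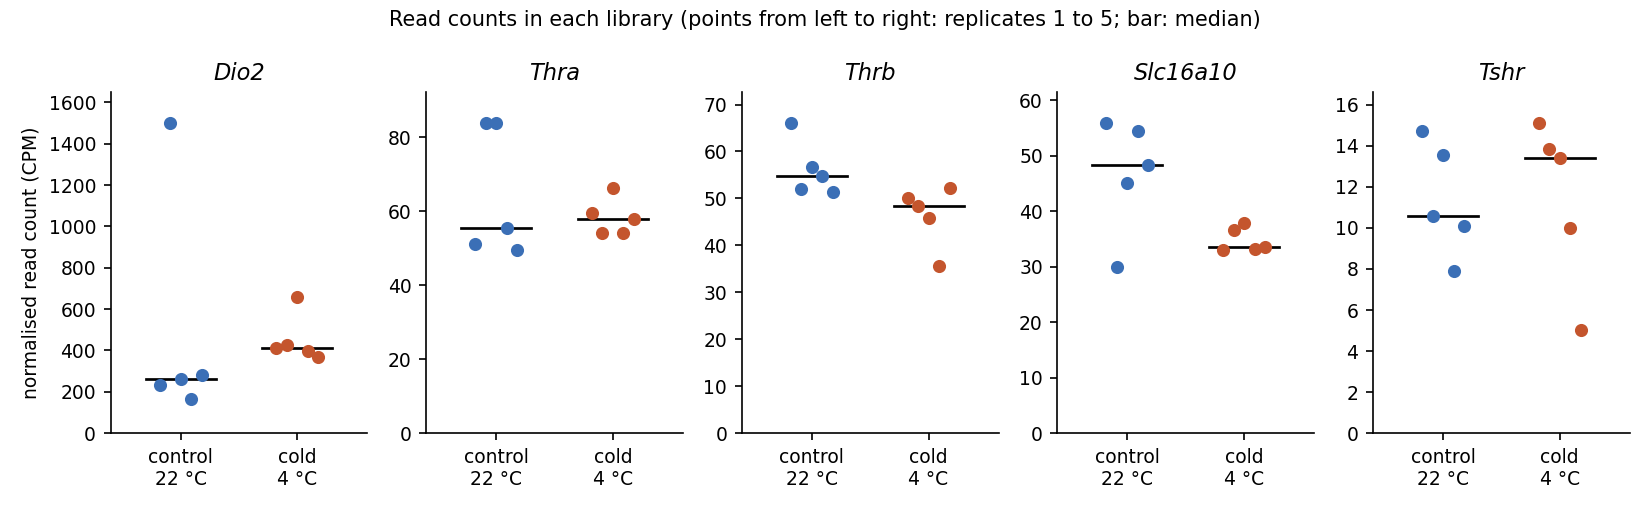
Normalised read counts (CPM, axes from 0) of Dio2, Thra, Thrb, Slc16a10 and Tshr in each library, with replicates 1 to 5 from left to right and the median as a bar. The Dio2 point at 1500 CPM is control replicate 2, and the Slc16a10 point at 30.0 CPM among the controls is the same library.

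Within the cold group, cold replicate 3 held the most Dio2, at 660.4 CPM against 369.0 to 424.9 in the other 4. The muscle actin Acta1 was also high there (47.2 CPM). Cold replicate 2 held 57.0 CPM of it, and the remaining cold libraries 4.64 to 8.09. The 9 skeletal muscle markers summed to 5.78 to 74.95 CPM in controls and to 6.73 to 315.5 CPM after cold, and none was at 0 in every library. Cold replicate 2 had more Acta1 than cold replicate 3 but a Dio2 level like that of the rest. Without cold replicates 2 and 3 Dio2 was at -0.32 (adjusted p = 0.808), with control replicate 2 retained. The part of muscle RNA in the Dio2 values was not tested.

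The genes that cAMP signalling induces quickly were read beside Dio2 because control replicate 2 was high in many of them. Of 12 tested genes of this list, 8 were over 2-fold above the mean of the other 4 controls in control replicate 2, against 2.62% of all genes tested, and 9 had their highest value of all 10 libraries there, against 19.7%. Genes outside the list were high there too. Of 5 smooth muscle markers, 3 (Acta2, Myh11 and Tagln) had their highest value in this library. So did 0 of 6 endothelial, 0 of 6 macrophage and 1 of 6 fibroblast markers. The part of smooth muscle RNA in these values was not tested. Atf3, an early stress-response transcription factor, was 16.4 times the mean of the other controls. The orphan nuclear receptors Nr4a3 and Nr4a1 were at 14.5 and 7.45 times, and Ppargc1a, the coactivator PGC-1 alpha, at 7.65 times. Egr1, an immediate early transcription factor, was at 0.647 times. Among 11229 genes ranked by this ratio, Dio2 was number 15, Ppargc1a 9 and Nr4a1 10. The cAMP list was assembled with earlier results of these data known, so its high values in this library are a description.

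Over all 10 libraries 1 of the 12 genes fell in the cold, against 9.14% of all genes tested, and 0 rose, against 10.2%. This was Nr4a3, which fell by 4.01 on the log2 scale (SE 1.001, adjusted p = 0.014). The median of the list was -0.24 against -0.02 for all genes tested. Nr4a3 ranged from 1.86 to 45.9 CPM in controls and from 0.561 to 0.793 CPM after cold, with no overlap, as for 14% of the genes tested. Its cold values lay near the limit of 3 counts, which was 0.428 to 0.561 CPM in the single cold libraries. At such cold values the gene passed the filter on low counts through the controls only. The lack of overlap is thus a description and no support for the fall. Without control replicate 2, where 11.3% of all genes tested were higher, Nr4a3 fell by 2.10, the list median was 0.10, and 2 genes were higher. These were Atf3 (2.31, adjusted p = 0.00225) and Ppargc1a (1.02, adjusted p = 0.0159), while Nr4a1 was at -0.65 (adjusted p = 0.473) and Nr4a2 at 0.02. The calls of Atf3 and Ppargc1a, like that of Dio2, appeared among the fits without 1 library only where control replicate 2 was left out.

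**Figure D3:**
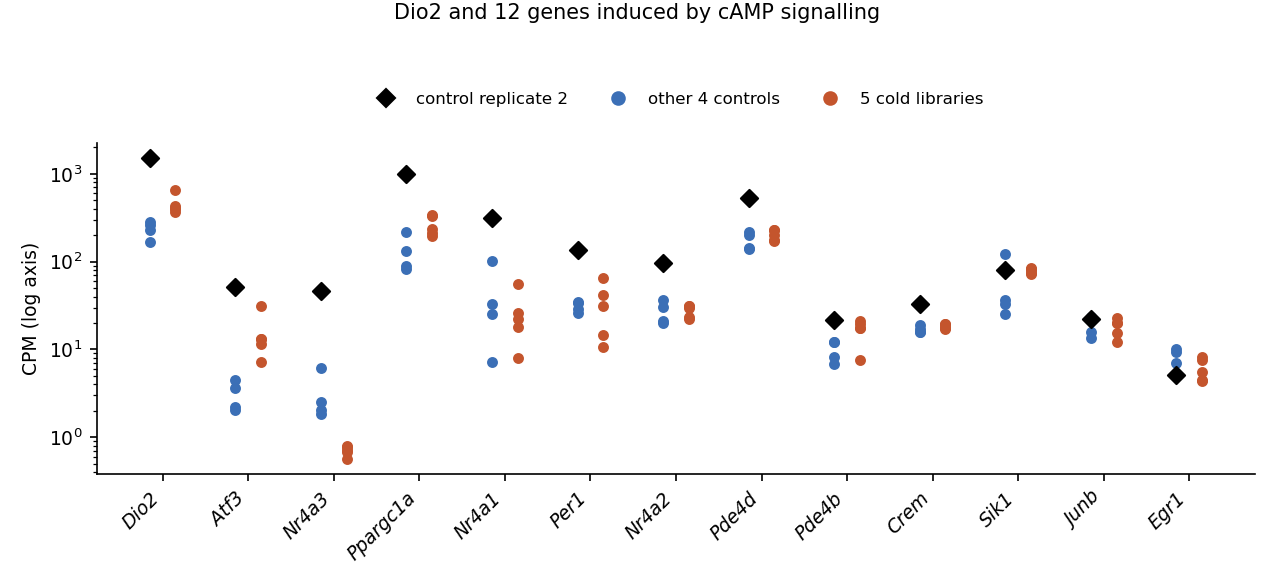
CPM on a log axis of Dio2 and the 12 tested cAMP-induced genes, ordered after Dio2 by the ratio of control replicate 2 (black diamond) to the other 4 controls (blue), with the 5 cold libraries in orange. In Dio2, Atf3 and Ppargc1a the diamond stands above every other library, and Egr1 has the smallest ratio, at 0.647.

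Windows were found for 11 of the 14 genes of the cAMP list, and 10 of the 11 genes held the shorter element, against 23.0% of 27025 genes in the table, while 0 of 11 held the full element that the Dio2 window has. Of the 4 genes with the highest ratio, 30 bases around the shorter element nearest the end of the window are shown for comparison with Dio2, in GRCm38.p6, with TGACG or its complement CGTCA in capitals. They lie at chr1:191183323-191183352 (minus strand), chr4:48045146-48045175 (plus), chr5:51567757-51567786 (minus) and chr15:101266794-101266823 (plus).
Atf3: ttaatagcattaCGTCAgcctgggattggt
Nr4a3: ctgtggcataaaTGACGtgccgagagagcg
Ppargc1a: ggtgccctcccaCGTCActgagctccagtg
Nr4a1: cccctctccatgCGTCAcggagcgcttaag

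Of the pathway genes described further below, only Wsb1 also held the full element. Wsb1 encodes a subunit of a ubiquitin ligase that acts on the Dio2 enzyme, and the element lay 38 to 31 bases before its start (chr11:79254715-79254744, minus strand).
Wsb1: gcctgatggtcTGACGTCAcccactacacc

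Wsb1 was at 40.01 CPM in control replicate 2 and 14.03 to 21.05 in the other controls, and at -0.31 in the cold (adjusted p = 0.414). Without that library it was at 0.014 (adjusted p = 0.962).

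By the mean absolute difference of centred log2 CPM over the 10 libraries, the genes most like Dio2 were Glt28d2 (0.28), Zfp516 (0.30) and Fibin (0.33), where the median of 11148 candidates was 0.65. Zfp516 encodes a zinc finger transcription factor described as an activator of Ucp1. It was at 79.2 CPM in control replicate 2, at 14.7 to 20.7 in the other controls and at 19.6 to 25.5 CPM in cold libraries. Fibin was at 14.9 CPM in control replicate 2, at 5.22 to 10.6 in the other controls and at 12.5 to 20.5 CPM in cold libraries. Glt28d2 was at 7.85 CPM there, at 1.01 to 2.99 in the other controls and at 2.64 to 3.99 CPM in cold libraries.

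Neither receptor gene passed the test. Thra (chr11:98603187-98626425) was at 51.1, 83.8, 83.9, 55.4 and 49.5 CPM in control replicates 1 to 5. In cold replicates 1 to 5 it was at 59.6, 54.1, 66.4, 54.2 and 58.0 CPM. The groups overlapped throughout, and the 2 highest libraries were control replicates 2 and 3. The log2 fold change was -0.15 (SE 0.155, 95% interval -0.48 to 0.19, adjusted p = 0.543). The Thra gene model of the table ended 2820 bases before that of Nr1d1, the clock repressor on the opposite strand, and no gene model overlapped any of the 8 genes. A longer Thra transcript, whose product does not bind hormone, is known to reach into Nr1d1, and the Thra model of the table stops short of that region.

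Thrb (chr14:18493474-18870602) was at 66.1, 52.0, 56.8, 54.7 and 51.4 CPM in control replicates 1 to 5. In cold replicates 1 to 5 it was at 50.2, 48.5, 45.9, 35.5 and 52.2 CPM. All but 1 of the cold libraries lay below the lowest control, the exception being cold replicate 5. The log2 fold change was -0.28 (SE 0.11, 95% interval -0.52 to -0.03, adjusted p = 0.105), which misses the threshold. Without control replicate 2 and cold replicate 5 together it was -0.35 (adjusted p = 0.0456).

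The balance of the receptors did not differ beyond the spread between libraries. Per kilobase counted, Thra exceeded Thrb by 2.07 to 4.30 times in control and by 2.97 to 4.08 times in cold libraries, with geometric means of 3.00 and 3.38. The log2 ratio differed by 0.17 (SD 0.44 in control and 0.22 in cold libraries, n = 5 each, exact permutation test, two-sided, p = 0.429). The smallest p this design allows is 0.00794.

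Slc16a10 (chr10:39753341-39862060) encodes a transporter of aromatic amino acids that also carries thyroid hormones. It was at 55.9, 30.0, 45.03, 54.4 and 48.3 CPM in control replicates 1 to 5. In cold replicates 1 to 5 it was at 33.0, 36.7, 37.9, 33.1 and 33.5 CPM. Control replicate 2 was the lowest library of all, and the other 4 controls lay above all 5 cold libraries. Over all libraries the log2 fold change was -0.42 (SE 0.14, 95% interval -0.73 to -0.11, adjusted p = 0.0556). Without control replicate 2 it was -0.55 (adjusted p = 0.00125), in a fit where 10.2% of genes were called lower. In the authors' deposited table Slc16a10 had a log2 fold change of -0.425 with an adjusted p of 0.0403.

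Tshr (chr12:92639433-92778949), the receptor for the pituitary hormone thyrotropin, was detected in every library, with 27 to 94 counts. It was at 14.7, 10.6, 13.6, 7.92 and 10.1 CPM in control replicates 1 to 5. In cold replicates 1 to 5 it was at 15.1, 13.8, 13.4, 9.99 and 5.05 CPM. The lowest library was cold replicate 5, and the groups overlapped. The log2 fold change was 0.03 (SE 0.26, 95% interval -0.53 to 0.59, adjusted p = 0.944), and 0.21 (adjusted p = 0.47) without cold replicate 5.

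Of the 5 genes, 0 of 5 were called over all libraries in the quasi-likelihood test, against 19.3% of all genes tested. Thrb and Slc16a10 had an unadjusted p under 0.05 in that test (0.0294 and 0.0113). DESeq2, which gave Dio2 no p, called Slc16a10 alone (adjusted p = 0.0398). Without control replicate 2 the calls were Dio2 higher and Slc16a10 lower, where 11.3% of all genes tested were higher and 10.2% lower.

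**Figure D4:**
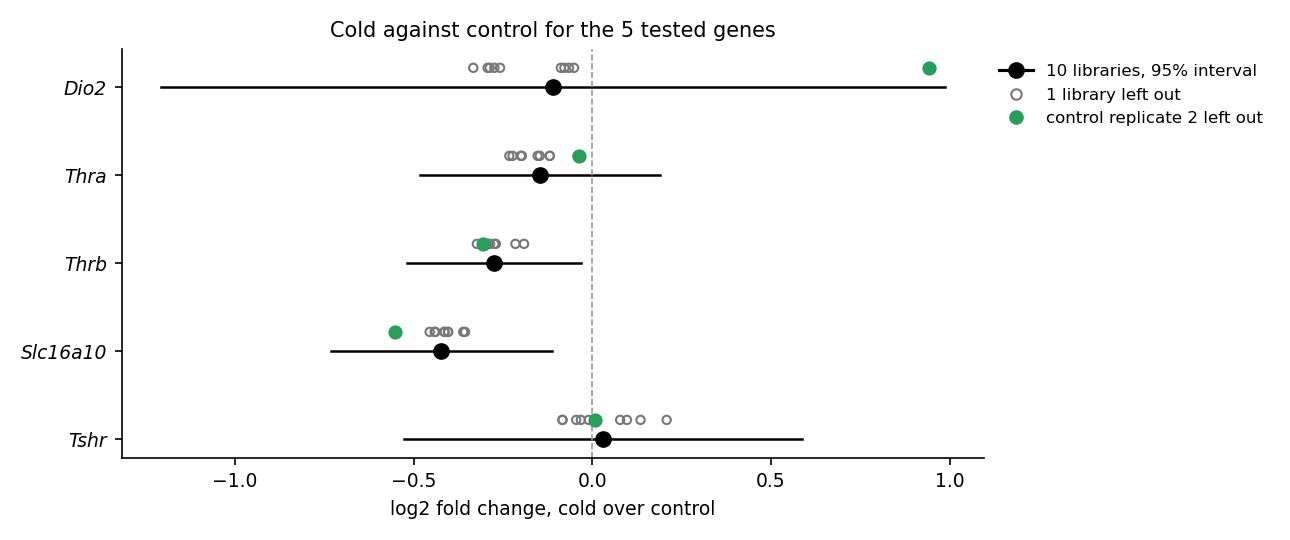
Log2 fold change of cold over control for the 5 tested genes, with the estimate over 10 libraries and its 95% interval in black, and the 10 fits that each left out 1 library as small circles above it. Dio2 lies at 0.94 without control replicate 2 (green) and between -0.33 and -0.05 in the other 9 fits.

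Genes most like the other 4 were named by the same measure. For Thra the nearest was Ube2g2 (0.09), a ubiquitin-conjugating enzyme that also acts on the Dio2 protein, for Thrb 2700062C07Rik (0.05), for Slc16a10 Rbfox2 (0.07), a splicing factor, and for Tshr Pola1 (0.15), the DNA polymerase alpha subunit. The median candidate differed from these 4 genes by 0.29, 0.26, 0.33 and 0.41.

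Around these genes, 8 lists of pathway partners held 79 genes of the table. Of these, 60 were tested, of which 11 rose and 7 fell in the cold, where 10.2% of all genes tested rose and 9.14% fell. Other membrane transporters of thyroid hormone or its relatives had 13 genes, 6 of them tested, of which 2 rose and 0 fell (median 0.255, against -0.02 for all genes tested). Slco4a1, an organic anion transporter, rose by 1.32 (SE 0.14, adjusted p = 6.6e-05), from 13.9 to 21.2 CPM in control to 37.2 to 54.1 CPM in cold libraries, with no overlap, as for 14% of the genes tested. Slc3a2, the heavy chain that carries amino acid transporters to the membrane, rose by 0.82 (adjusted p = 0.0262), but 5 of the 10 fits that each omitted 1 library did not call it (adjusted p up to 0.0696), those without control replicate 3, 4 or 5 or cold replicate 3 or 4. It was at 183 CPM in control replicate 2 and at 65.9 to 114.5 in the other controls, and without that library it was 1.12 higher. Slc7a8, a light chain partner of Slc3a2 picked with its values known, reached 45.3 CPM in control replicate 2 against 2.30 to 6.57 in the other controls and 4.98 to 10.8 CPM in the cold. It was at -0.59 (adjusted p = 0.577) over all libraries and at 0.985 (adjusted p = 0.0449) without control replicate 2. In that fit 3 of the 6 transporters were higher, against 11.3% of all genes tested, and the transporter median was 0.59.

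Receptor partners and coregulators were all detected, and 2 of 16 rose and 1 fell (median -0.035), against 10.2% and 9.14% of all genes tested. Ncoa1, a coactivator, rose by 0.50 (SE 0.12, adjusted p = 0.0122). Hdac3, the histone deacetylase of the corepressor complex, was lower by 0.34 (adjusted p = 0.0315), and 7 of the 10 fits that each omitted 1 library no longer called it, all but those without control replicate 1, control replicate 5 or cold replicate 5. The retinoid X receptor genes Rxra and Rxrg, named with their values known, were at -0.076 and 0.004.

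Among 10 genes that add or remove ubiquitin on the Dio2 enzyme, 0 rose and 1 fell (median 0.10), against 10.2% and 9.14% of all genes tested. Usp20, a deubiquitinase that rescues the enzyme from degradation, fell by 0.67 (SE 0.12, adjusted p = 0.00194), from 20.2 to 26.8 CPM in control to 13.3 to 16.7 CPM in cold libraries, and was called in 10 of 10 fits without 1 library. Its relative Usp33, chosen afterwards, was at 195.6 CPM in control replicate 2 against 89.9 to 109.4 in the other controls, and was at 0.26 (adjusted p = 0.375) over all libraries and 0.53 (adjusted p = 0.0054) without that one. Deiodinases carry selenocysteine, and of 6 tested genes that insert it 0 rose and 1 fell, against 10.2% and 9.14% of all genes tested. This was Trnau1ap, a selenocysteine tRNA binding protein, at -0.47 (SE 0.11, adjusted p = 0.0115) with cold libraries all below the controls. A lack of overlap in either direction was seen for 14% of the genes tested. Of the other enzymes acting on iodothyronines, only Sult1a1, a sulfotransferase, was tested. It was lower by 1.24 (adjusted p = 0.0317), and by 0.77 (adjusted p = 0.0459) without control replicate 2, where it was at 104 CPM against 26.5 to 42.5 in the other controls. Without cold replicate 1, 2, 3 or 4 it was not called (adjusted p up to 0.0789).

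Genes described as responsive to thyroid hormone moved in both directions, with 3 of 14 higher and 3 lower (median -0.22). Of all genes tested, 10.2% were higher and 9.14% lower (median -0.02). Ucp1, the uncoupling protein, rose by 1.02 (SE 0.09), Bcl3, a nuclear cofactor of NF-kappa-B, by 0.73 (SE 0.13) and Atp2a2, the reticulum calcium pump, by 0.65 (SE 0.08). Scd1, the stearoyl-CoA desaturase, fell by 1.18 (SE 0.20). The remaining called genes were Hr, the hairless corepressor, and Acaca, the acetyl-CoA carboxylase, at -1.16 (SE 0.28, adjusted p = 0.0116) and -0.76 (adjusted p = 0.0215, not called without control replicate 5 or cold replicate 2, 3 or 4). Hr was at 8.83 CPM in control replicate 2, within the cold range of 8.39 to 13.2, and at 21.3 to 31.7 CPM in the other controls. Thrsp, the lipogenic protein known as a marker of hormone action, chosen afterwards, was at -0.24 (adjusted p = 0.15). Without control replicate 2, 4 of 15 were higher and 5 lower, and the median was 0. In that fit 11.3% of all genes tested were higher and 10.2% lower (median -0.01).

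The G proteins and adenylyl cyclases that the thyrotropin receptor can couple to had 4 of 7 tested genes higher and 0 lower (median 0.40), against 10.2% higher and 9.14% lower among all genes tested. The 4 were called in every fit without 1 library. Adcy3 rose by 1.535 (SE 0.21, adjusted p = 0.000303), from 128 to 273 CPM in control to 452 to 666 CPM in cold libraries. Gnas, the stimulatory G protein subunit, rose by 0.84 (SE 0.09), Gna12 by 0.56 (SE 0.09) and Gna13 by 0.40 (SE 0.09). These proteins serve many receptors of the tissue.

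**Figure D5:**
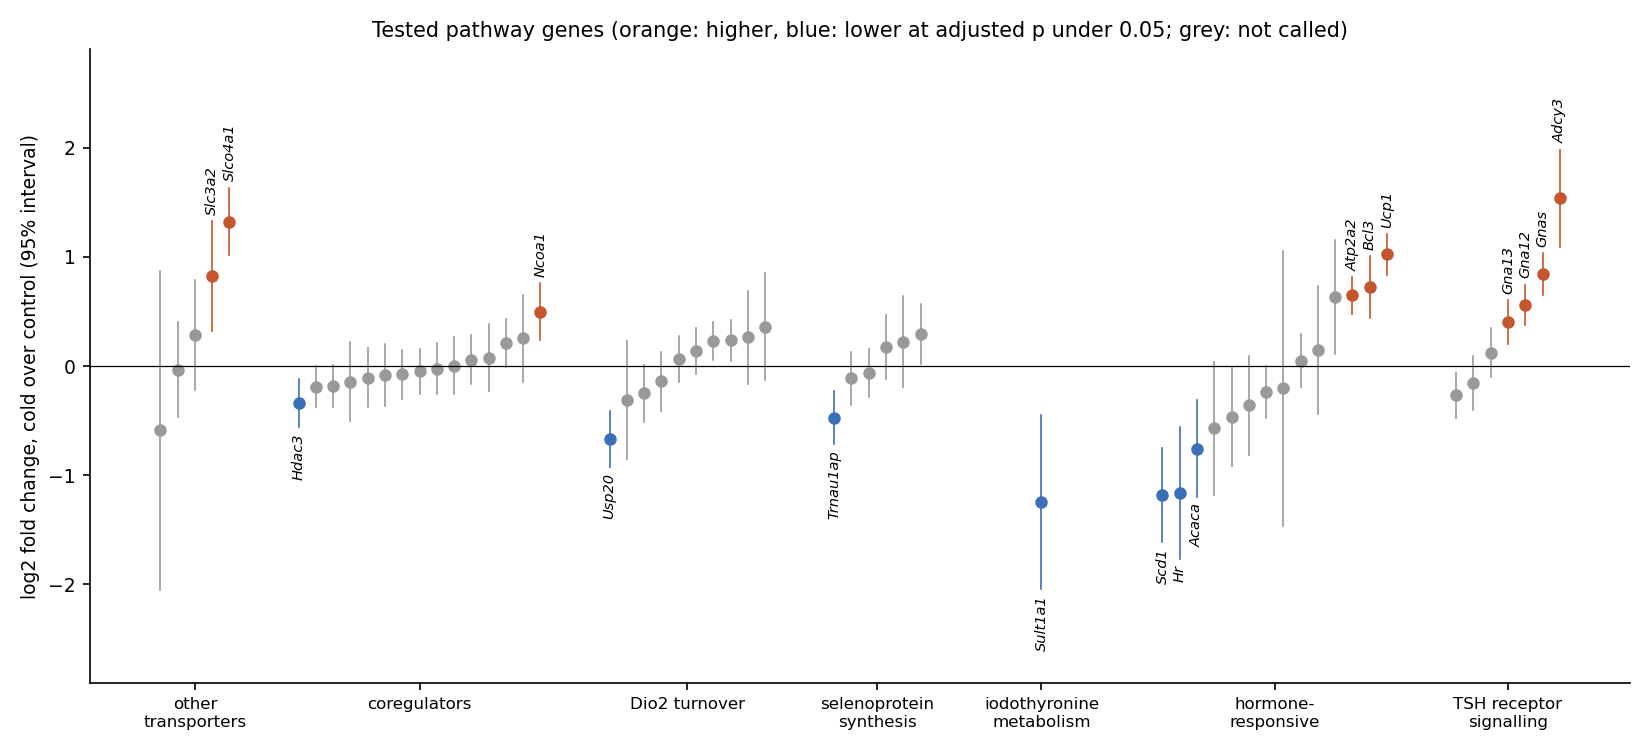
Log2 fold change of cold over control with 95% interval for 58 tested pathway genes by list, with called genes named (orange higher, blue lower) and the others in grey. The 4 called genes of thyrotropin receptor signalling are all higher, and the hormone-responsive genes have 3 on each side.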

How the data were processed

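Poly-A RNA of brown fat from 10 mice was sequenced, from 4 µg of total RNA each, per the labels' protocols. The authors deposited raw counts per RefSeq gene model; STAR, edgeR and the build mm9 are named, per the submitters' processing notes. Not given in the sources used here: counter, strand setting and versions. The authors' deposited table of their own comparison gives log2 fold change and log2 CPM, with the p-value raw and adjusted, per the file headers. Groups were taken from sample titles; the treatment tag of cold samples gives 4 °C beside the words for room temperature. Control columns were matched by replicate number, and 0 columns were left unused.

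Counts were tested with edgeR 4.0.16 (R 4.3.3): filterByExpr, TMM, glmQLFit and glmQLFTest, with Benjamini-Hochberg adjustment over all genes tested and two-sided p-values. SE was the size of the log2 fold change over the square root of F. Log2 CPM used a prior count of 2. DESeq2 1.42.0 and limma 3.58.1 (voom) served as alternatives, beside other scalings, filters, a replicate block and omitted libraries. The test was checked on simulated counts, with the same dispersion for every gene and no outlying library. That setting does not cover genes such as Dio2, with an extreme value in control replicate 2. No pair of libraries of a group agreed within sampling noise (chi-square per degree of freedom 3.31 to 38.7).

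The 8 genes, all lists and the naming rule were chosen with earlier results of these data known. The rule took the 8 genes, up to 4 called genes of each list by smallest p, and the 3 genes nearest to each tested gene, of which the first is printed for 4 of them. Gene coordinates are of mm9 from the count table, with starts raised by 1; promoter sequences are RefSeq's on GRCm38.p6, and the builds were not mixed. Some genes of the lists enter the counts but are not reported here by name or drawn.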

Additional observations from a re-analysis of the deposited data

Results flagged for a closer look

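In groups of 5 libraries, 7 values lay far from the other 4 of their group (gap over range above 0.71) among 44 groups of values checked over 22 genes. Independent, normally distributed values pass that limit about 1 time in 20. The genes were chosen with earlier results known, CPM need not be normal, and control replicate 2 recurs. No excess over chance can therefore be read from the count. In control replicate 2 the values set apart were Dio2 at 1500 CPM (others 165.9 to 283.6), Nr4a3 at 45.9 CPM (others 1.86 to 6.20) and Sult1a1 at 104 CPM (others 26.5 to 42.5). In the cold group Dio2 was at 660.4 CPM in replicate 3 (others 369.0 to 424.9), Slc3a2 at 226 CPM in replicate 4 (others 161 to 179) and Scd1 at 52790 CPM in replicate 5 (others 23370 to 31390). The muscle actin Acta1 was at 18.2 CPM in control replicate 4 (others 3.72 to 7.01).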

How the results depend on the processing

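Dio2 reversed with limma-voom (0.40), in the exact permutation test of mean log2 CPM (0.40, chosen after seeing the data), with the replicate block (0.46) and on omitting both control replicate 2 and cold replicate 5 (1.01, adjusted p = 0.00113); without 1 library it ranged from -0.33 to 0.94. Tshr, close to 0, changed sign with the replicate block (-0.014), in the permutation test (-0.047) and without cold replicates 2 and 3 together (-0.16, also chosen afterwards), and ranged from -0.084 to 0.208 without 1 library. Slc16a10 passed the threshold with DESeq2 (-0.43, with or without its outlier filter, adjusted p = 0.0398 and 0.0399) and without both named libraries (-0.54), and ranged from -0.55 to -0.36. Thrb passed without both libraries (-0.35) and in the exact permutation test (-0.28, unadjusted p = 0.0238), and ranged from -0.32 to -0.19. Thra kept its direction and stayed uncalled in all 24 alternatives (-0.23 to -0.04 without 1 library), as did the receptor ratio in 11 (0.04 to 0.30). Pathway genes lower numbered 7, 11 without control replicate 2 and cold replicate 5, 3 without cold replicates 2 and 3, and 4 to 9 without 1 library (4 without cold replicate 2, 3 or 4); those higher numbered 11, 9 to 14 without 1 library and 8 without cold replicates 2 and 3. The median of the hormone-responsive genes, -0.221, was -0.096 with limma-voom and with the replicate block. Nr4a3, the only call of the cAMP list, was called in 10 of 10 fits without 1 library. It was not called with limma-voom or without cold replicates 2 and 3, where 0 genes of that list were lower. With DESeq2, without a filter and with a filter on CPM above 1, 1 gene of that list was higher, against 0 in the main fit. Of all genes tested, 1142 rose and 1026 fell, and 823 to 1310 and 732 to 1157 did so without 1 library. The numbers were 503 and 384 without cold replicates 2 and 3, and 1547 and 1327 without control replicate 2 and cold replicate 5. The causes were not tested.

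The deviations of same-numbered control and cold libraries from their group means had correlations of 0.13, -0.02, -0.07, 0.19 and -0.26 for replicates 1 to 5. Control replicates 1 and 4 correlated most with the cold library of their own number, and 2, 3 and 5 with another. Such correlations cannot decide whether the numbers pair the mice. The replicate block gave 981 genes higher and 808 lower and no call among the 5 genes.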

Other observations

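Several partners of thyroid hormone action were near the limit of detection in this tissue. Over all 10 libraries the serum carrier genes Ttr and Serpina7 had 0 counts and Alb had 2. The thyrotropin subunit genes Tshb and Cga had 1 and 0 counts, and those of the related hormone thyrostimulin, Gpha2 and Gphb5, had 1 and 0. Of the transporters, Slco1c1, known from the blood-brain barrier, had 11 counts and Slc7a5, a light chain partner of Slc3a2, had 57. The iodotyrosine deiodinase Iyd had 1 count. None of these genes passed the filter on low counts, and each was named after its values were seen.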
